A study of Mus musculus with 5 samples.

Results

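Myc and 49 genes of ribosome biogenesis were followed through 5 cultures of mouse CD4 T cells. The members are a list of gene symbols, and each was measured by the array probes whose RefSeq accession belongs to it. Where a gene had more than 1 probe, the probe with the highest mean signal over the 5 arrays was used. The 50 members were all on the array, among 21366 genes with a value on every array. The probe of Npm3, a nucleolar chaperone related to nucleophosmin, was not well above background on any of the 5 arrays, so values are given for the other 49 members, which were well above background on all 5.

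All cultures began with naive CD4 T cells from C57BL/6 spleen, and all received IL-2 and antibodies to IL-4. Th1reg cells had 3 steps of 4 days each, 12 days in all: Th1 medium, rest, and then iTreg medium, which held TGF-b, IL-2, antibodies to CD3 and CD28, and antibodies to IFNg and IL-4. Th1+TGFb cells went straight from Th1 medium into iTreg medium, 8 days in all. Rested cells went from Th1 medium into IL-2 with antibodies to IFN-g and IL-4, again 8 days in all, and for this step no antibody to CD3 or CD28 is listed. iTreg cells were naive cells kept 4 days in iTreg medium. Th1 cells were naive cells kept 4 days with antibodies to CD3 and CD28, antibodies to IL-4, IL-2 and IL-12. The labels do not say how many mice were behind a culture or whether cells were pooled.

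RNA of each culture was hybridised to 1 array of the 1-colour Agilent whole-genome kind. With 1 array per culture there is no spread between replicates, no test and no p-value, and each comparison is between single arrays. A level below is log2 of the probe's processed signal over the 75th percentile of that array, so that 0 stands for a signal equal to that percentile. Levels of different probes are not on 1 scale, so each gene is compared with itself across cultures. A gene is called at least 2-fold higher or lower where the levels differ by 1 or more. As a guide to technical error, probes with 3 or more spots on an array gave a bound of 0.29 for a difference between 2 arrays. It is the 95th percentile of their spot-to-spot SD, on the array where that was largest, times the square root of 2. Being an SD, it is a guide that technical error alone can pass. That bound covers spots on an array and says nothing about other cultures of the same kind. Array RNA of a culture cannot tell fewer cells of a type from less RNA per cell.

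Myc is a transcription factor that T cells make when their antigen receptor is engaged, and it is known in such cells for driving growth ahead of division. It binds DNA as a partner of Max, at the sequence CACGTG and close variants of it, and genes of ribosome biogenesis are among its best-known targets. In the nucleolus, RNA polymerase I makes a long ribosomal RNA precursor, small nucleolar ribonucleoproteins (snoRNPs) guide its chemical modification, and a large set of assembly factors cut, fold and pack it into the 40S and 60S subunits.

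The letters below show where the Myc and Max motif lies in members' promoters. RefSeq promoter windows on GRCm38.p6, from 250 bases before to 50 bases after a gene's start, matched 43 of the 50 members. The members with no entry were Bop1, Fbl, Gnl2, Myc, Npm1, Rrp12 and Rrs1. CACGTG, which reads the same on both strands, was present in 9 of the 43 genes (20.9%), against 8.09% of all genes with a window and 12.1% of genes well above background on all 5 arrays. The variant CACGCG, searched on both strands and thus also as CGCGTG, was present in 15 of the 43 (34.9%), against 10.5% and 20.1%. Mybbp1a and Pes1 had both. Shown, where the whole stretch lay in the window, are 30 bases around CACGTG in all members that held it, and around the variant in members at least 4-fold lower in rested than in Th1 cells. Capitals mark the motif.
Nop2, chr6:125131811-125131840, plus strand: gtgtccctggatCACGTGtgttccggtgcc
Rrn3, chr16:13780472-13780501, plus strand: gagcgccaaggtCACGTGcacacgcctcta
Rrn3, chr16:13780639-13780668, plus strand: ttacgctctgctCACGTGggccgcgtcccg
Pes1, chr11:3963965-3963994, plus strand: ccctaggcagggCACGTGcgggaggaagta
Wdr43, chr17:71616220-71616249, plus strand: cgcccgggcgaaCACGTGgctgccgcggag
Tsr1, chr11:74898092-74898121, plus strand: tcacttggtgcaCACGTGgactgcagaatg
Nle1, chr11:82908355-82908384, minus strand: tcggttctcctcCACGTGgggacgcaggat
Ltv1, chr10:13193092-13193121, minus strand: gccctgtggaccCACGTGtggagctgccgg
Bysl, chr17:47611604-47611633, minus strand: actccagaccttCACGCGaacggcggcccc
Nhp2, chr11:51619764-51619793, plus strand: ggaggcggcggcCGCGTGgttcctctatgc
Nolc1, chr19:46075810-46075839, plus strand: gcaggatgatgaCGCGTGtgggaccggaag
Nop16, chr13:54590029-54590058, minus strand: ggagactattaaCACGCGgctctgagagcg
With the gene's first base as 0, the first letter of CACGTG lay at -60 in Nop2 and at -215 and -48 in Rrn3, in front of the start. It lay behind the start in Pes1 (at 2), Wdr43 (17), Nle1 (23), Tsr1 (24) and Ltv1 (28), and also in Utp20 and Mybbp1a, whose stretch ran past the window. Members with CACGTG had a median log2 difference of -1.27 (n = 9 genes) in rested against Th1 cells, and members without it one of -1.41 (n = 33). For Th1reg against rested cells the medians were 1.64 and 1.78. A match describes these letters alone and shows no binding, and no match says only that the letters are not in this window.

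Each array had 62976 spots, of which 45.7% to 48.7% were well above background and none saturated. The 75th percentile of the processed signal was 259 for Th1reg, 173 for Th1+TGFb, 128 for rested, 238 for iTreg and 206 for Th1, so the rested array was the dimmest. All 8 CD4 T cell markers looked for, among them Cd3e and Cd4, were well above background on every array. Their summed scaled signal (linear, so 1 is the 75th percentile of an array) was 1663 in Th1reg, 2165 in Th1+TGFb, 1735 in rested, 955 in iTreg and 2191 in Th1. Of the B cell markers, Cd79a and Pax5 were dim on all 5 arrays while Cr2 and Cd22 were well above background on all 5, and the summed scaled signal of the list was 1.31 in Th1reg, 3.52 in Th1+TGFb, 6.41 in rested, 3.0 in iTreg and 1.55 in Th1. Of the myeloid markers, Lyz2, Lyz1, S100a8 and S100a9 were dim on all 5 while Itgam, Csf3r, Siglech and Csf1r were well above background on all 5, and the sums in that order of cultures were 467, 1296, 1948, 1027 and 642. Of the CD8 T and NK cell markers, Ncr1 and Klrb1c were dim and Cd8b1 was well above background on all 5, and the sums were 2.76, 12.9, 3.99, 2.04 and 2.41. The highest of this list in Th1+TGFb were Klra8 and Klri2, at levels of 2.74 and 2.55. Cd8b1 was at -1.90 in Th1+TGFb and -0.58 in rested, and Cd8a was well above background in iTreg alone. Of the markers of red cell precursors, Hbb-b1, Klf1 and Alas2 were dim on all 5 and Hba-a1 was well above background in iTreg alone, and the sums were 0.189, 0.232, 0.251, 0.371 and 0.148. The summed signal of 10 genes of dividing cells, such as Mki67, Top2a and Bub1, was 592 in Th1reg, 205 in Th1+TGFb, 58.5 in rested, 413 in iTreg and 495 in Th1. From high to low that order was also the order of 22 of the 49 members, and the part of these markers in the members' differences was not tested.

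**Figure D1:**
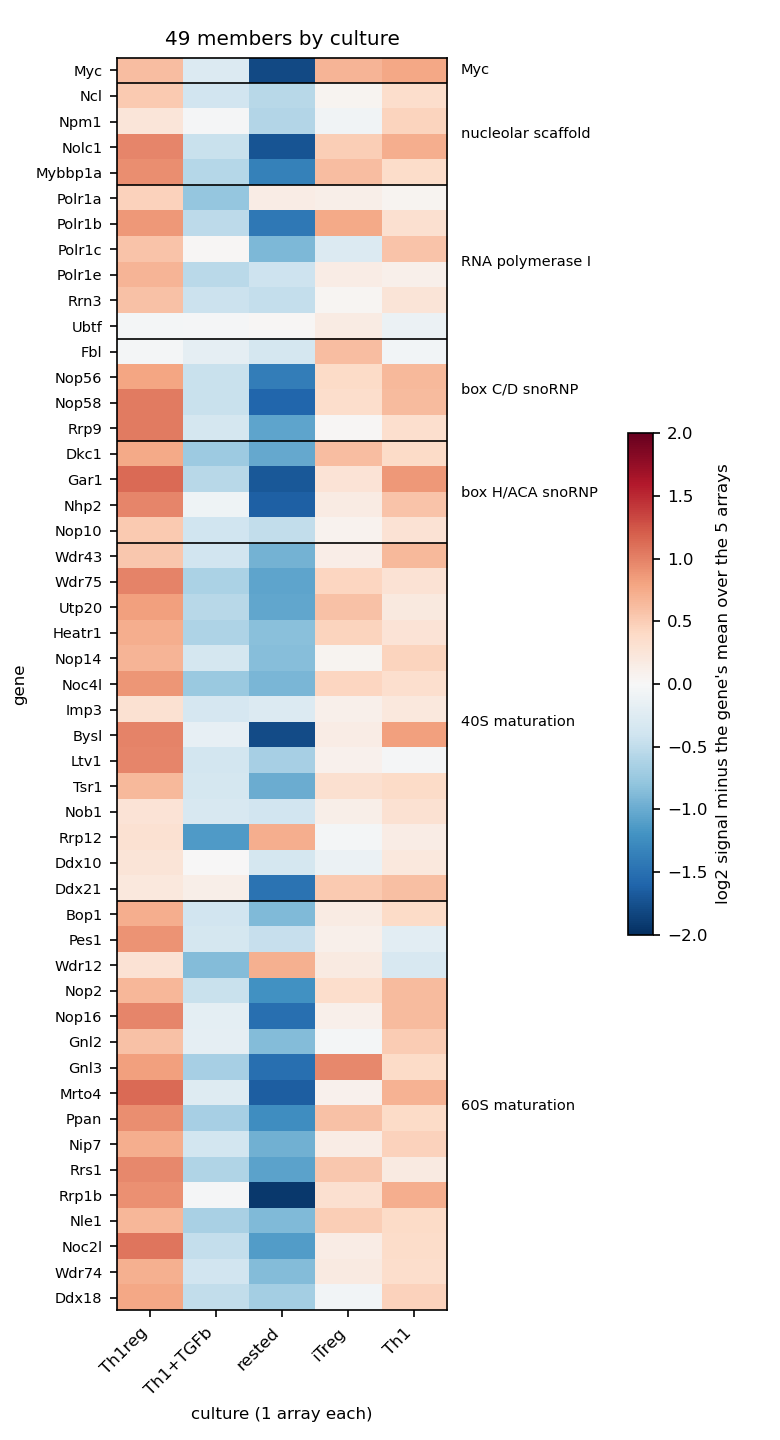
Level of 49 members (rows, grouped by role) in the 5 cultures (columns, 1 array each), as log2 signal minus the gene's mean over the 5 arrays; red is higher and blue lower than that mean. The rested column holds the lowest level in 43 of 49 members and the Th1reg column the highest in 38, with Wdr12, Rrp12, Polr1a and Ubtf departing from it.

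The list was lowest in rested cells and highest in Th1reg cells. The median level of the 49 members was 4.36 in Th1reg, 3.40 in Th1+TGFb, 2.45 in rested, 3.87 in iTreg and 4.20 in Th1. Rested cells had the lowest level in 43 of 49 members, against 39.8% of the 10715 genes well above background on all 5 arrays. In 32 of the 43 the gap to the next culture was over the technical bound. Th1reg cells had the highest level in 38 of 49, against 34.1% of all genes, with a gap over the bound in 19. The order Th1reg, Th1, iTreg, Th1+TGFb, rested, from high to low, was that of 22 members (9.93% of genes), and the same order with iTreg ahead of Th1 that of 12 more (3.39% of genes). Between neighbours in this order, Th1reg exceeded Th1 by more than the bound in 25 members (28.0% of all genes). It was under Th1 in 1 (24.6% of genes) and within the bound in 23. For iTreg against Th1 these counts were 7 above (22.8% of genes), 16 below (50.8%) and 26 within. Th1+TGFb was under iTreg by more than the bound in 43 members (32.7% of genes) and within it in the other 6. Over all genes, 39.4% had Th1+TGFb above iTreg by more than the bound. Th1+TGFb exceeded rested by more than the bound in 33 (44.8% of genes), was under it in 3 (27.1%) and within it in 13. Th1+TGFb and rested thus stood below the other cultures for most members, while the order of Th1reg, Th1 and iTreg among themselves often lay inside the bound.

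Members differed in how far they moved. The difference between a member's highest and lowest culture had a median of 1.68 and reached 1 in 44 of 49. Over the 10715 genes its median was 1.32, and it reached 1 in 7260 of them. Among the members it was widest for Rrp1b, a nucleolar protein of large-subunit processing, at 7.17-fold. Next were Gar1, a core protein of the snoRNPs that guide pseudouridylation, at 7.10-fold, and Mrto4, which holds the place of the ribosomal stalk on the 60S precursor, at 6.87-fold. Bysl, a factor of 40S maturation, spanned 6.86-fold, and Myc itself 5.95-fold. At the other end stood Ubtf, the factor that binds the ribosomal RNA genes for RNA polymerase I, at 1.22-fold, the RNA helicase Ddx10 at 1.53-fold, Imp3, a protein of the U3 snoRNP, at 1.56-fold, and Nob1, the nuclease that makes the end of 18S ribosomal RNA, at 1.61-fold.

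Myc had a level of 4.36 in Th1reg, 3.46 in Th1+TGFb, 1.93 in rested, 4.42 in iTreg and 4.51 in Th1. On the arrays as scanned, its processed signal was 5330, 1897, 491, 5088 and 4675 units in that order of cultures. Th1reg, iTreg and Th1 lay within the technical bound of each other, with Th1+TGFb between them and rested. Myc was thus 5.95-fold lower in rested than in Th1 cells, 2.87-fold higher in Th1+TGFb than in rested cells, and 5.37-fold higher in Th1reg, again with rested as the base. It was 2.07-fold lower in Th1+TGFb than in Th1 cells, and 1.87-fold higher in Th1reg than in Th1+TGFb cells, just short of 2-fold.

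Of 12 other genes of the Myc network, 10 were measured, while Mycl and Mxi1 were dim on all 5 arrays. Mxd1 and Mxd3 pair with Max at the same DNA sequence and repress. Mxd1 had a level of 2.66 in Th1reg, 6.50 in Th1+TGFb, 2.64 in rested, 3.89 in iTreg and 5.79 in Th1. It was 8.89-fold lower in rested than in Th1, 14.5-fold higher in Th1+TGFb than in rested, and 14.3-fold lower in Th1reg than in Th1+TGFb cells. The 2 cultures at the ends of the order for the members, Th1reg and rested, thus had the same low level of Mxd1, and Th1+TGFb the highest. Mxd3 had a level of 2.43 in Th1reg, 1.20 in Th1+TGFb, -0.23 in rested, 1.73 in iTreg and 2.27 in Th1, the order shared by 22 members. Mycn, the Myc relative first known from nerve cell tumours, had a level of -1.12 in Th1reg, 0.67 in Th1+TGFb, -1.77 in rested and 0.23 in Th1, and was not well above background in iTreg. It was 5.42-fold higher in Th1+TGFb than in rested cells, and in iTreg, set against Th1, it was at least 13.1-fold lower, where "at least" sets the dim array to its lowest signal well above background. Max, the shared partner, lay between 4.51 in Th1+TGFb and 5.71 in iTreg, and Mnt, a further Max partner that represses, between 4.94 in iTreg and 5.43 in Th1+TGFb. Mlxipl, a relative that responds to glucose, had its lowest level in Th1reg, at 2.03, and its highest in rested, at 4.09, the reverse of most members.

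**Figure D2:**
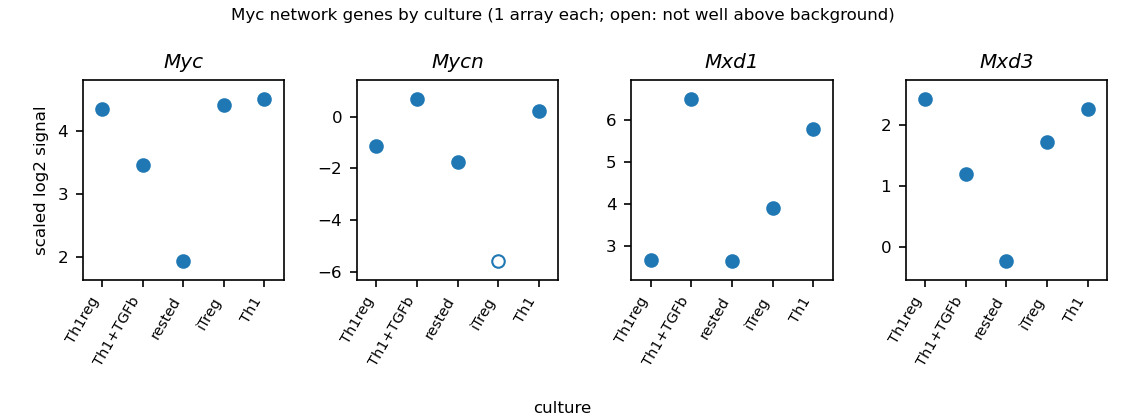
Level (scaled log2 signal, y axis, with a scale of its own in each panel) of Myc, Mycn, Mxd1 and Mxd3 in the 5 cultures, 1 array each. Myc and Mxd3 were lowest in rested cells, Mxd1 was highest in Th1+TGFb cells at 6.50 and near 2.6 in Th1reg and rested cells, and the open point marks Mycn in iTreg, which was not well above background.

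Among the nucleolar scaffold and chaperone proteins, Nolc1 and Mybbp1a moved most. Nolc1, a chaperone of snoRNPs, had a level of 5.75 in Th1reg, 4.32 in Th1+TGFb, 3.05 in rested, 5.27 in iTreg and 5.50 in Th1. Mybbp1a, a nucleolar protein that binds the transcription factor Myb, had 6.54, 5.05, 4.25, 6.24 and 5.98 in that order. Nucleolin (Ncl), which packs ribosomal RNA genes and their transcripts, moved less, with 7.52 in Th1reg, 6.61 in Th1+TGFb, 6.43 in rested, 7.04 in iTreg and 7.34 in Th1. Nucleophosmin (Npm1) had 8.27, 8.01, 7.44, 7.95 and 8.47, highest in Th1; the gene has processed copies in the genome, so its signal may be shared. The second probes of Nolc1 and Ncl gave other differences, described further below.

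The RNA polymerase I genes did not move as 1 block. Polr1b, the second-largest subunit, had a level of 2.64 in Th1reg, 1.25 in Th1+TGFb, 0.34 in rested, 2.53 in iTreg and 2.08 in Th1. Polr1a, the largest subunit, which holds the catalytic site together with Polr1b, had 3.71 in Th1reg, 2.48 in Th1+TGFb, 3.40 in rested, 3.37 in iTreg and 3.31 in Th1. So Polr1a was as high in rested as in Th1 cells, while Polr1b was 3.34-fold lower there. Polr1c, a subunit shared with RNA polymerase III, had 5.09 in Th1reg, 4.54 in Th1+TGFb, 3.63 in rested, 4.25 in iTreg and 5.09 in Th1. Polr1e had 3.02, 1.81, 1.93, 2.50 and 2.45 in that order, and Rrn3, the factor that makes the polymerase competent to start, 3.30, 2.29, 2.24, 2.76 and 2.98. For both of them Th1+TGFb and rested lay within the technical bound of each other. Ubtf had 6.06 in Th1reg, 6.08 in Th1+TGFb, 6.12 in rested, 6.27 in iTreg and 5.99 in Th1, all within the bound.

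Among the box C/D snoRNP proteins, which guide methylation of ribosomal RNA, Nop56, Nop58 and Rrp9 were lowest in rested and highest in Th1reg cells, and the enzyme itself was highest in iTreg. Nop56 had a level of 7.09 in Th1reg, 5.85 in Th1+TGFb, 4.92 in rested, 6.68 in iTreg and 6.95 in Th1. Its partner Nop58 had 4.60, 3.12, 1.99, 3.92 and 4.20, and Rrp9, a protein particular to the U3 snoRNP, 3.72, 2.33, 1.63, 2.71 and 3.03 in the same order. Fibrillarin (Fbl), the methyltransferase, had 5.07 in Th1reg, 4.92 in Th1+TGFb, 4.76 in rested, 5.72 in iTreg and 5.04 in Th1. The cultures other than iTreg lay between 4.76 and 5.07, and iTreg stood above them all.

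All measured box H/ACA proteins, which guide pseudouridylation and also sit in telomerase, were lowest in rested and highest in Th1reg cells. Gar1 had a level of 6.42 in Th1reg, 4.73 in Th1+TGFb, 3.59 in rested, 5.56 in iTreg and 6.16 in Th1. Nhp2 had 7.34, 6.27, 4.73, 6.52 and 6.93 in that order, and the pseudouridine synthase Dkc1 1.44, -0.05, -0.34, 1.31 and 1.06. Nop10, the smallest of these proteins, moved least, with 5.50 in Th1reg, 4.58 in Th1+TGFb, 4.49 in rested, 5.06 in iTreg and 5.27 in Th1.

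Of the 14 genes of the small-subunit processome and 40S maturation, Bysl spanned the widest range, with a level of 5.05 in Th1reg, 3.89 in Th1+TGFb, 2.27 in rested, 4.20 in iTreg and 4.88 in Th1. The helicase Ddx21, which also acts in RNA polymerase II transcription, had 4.14 in Th1reg, 4.04 in Th1+TGFb, 2.45 in rested, 4.44 in iTreg and 4.53 in Th1. Rested cells alone stood low for Ddx21 on this probe. Noc4l, which works with Nop14, had 5.04, 3.40, 3.24, 4.58 and 4.49, and Wdr75, a part of the complex that starts the processome, 3.94, 2.31, 1.89, 3.37 and 3.23 in the same order of cultures. For Noc4l Th1+TGFb and rested lay within the technical bound of each other, and for Wdr75 Th1+TGFb was 0.42 above rested, beyond the bound. Rrp12, an export factor, went another way, with 1.26 in Th1reg, -0.18 in Th1+TGFb, 1.69 in rested, 0.93 in iTreg and 1.1 in Th1, so that rested was highest and Th1+TGFb lowest. The other 9, Wdr43, Utp20, Heatr1, Nop14, Imp3, Ltv1, Tsr1, Nob1 and Ddx10, had their lowest level in rested cells, except Imp3, lowest in Th1+TGFb at 5.72 and next in rested at 5.78. The difference between the highest and lowest culture ran from 1.53-fold for Ddx10 to 3.59-fold for Utp20, a large scaffold protein.

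Among the 16 genes of 60S maturation, the 3 proteins of the PeBoW complex were not alike. Bop1 had a level of 5.70 in Th1reg, 4.59 in Th1+TGFb, 4.09 in rested, 5.14 in iTreg and 5.36 in Th1. Pes1 had 1.83, 0.58, 0.47, 1.03 and 0.71 in that order, and Wdr12 had 0.95, -0.21, 1.37, 0.84 and 0.34. Wdr12 was thus highest in rested cells, where Bop1 and Pes1 were lowest. Rrp1b had 2.66 in Th1reg, 1.72 in Th1+TGFb, -0.18 in rested, 2.06 in iTreg and 2.47 in Th1, and Mrto4 had 4.91, 3.52, 2.13, 3.87 and 4.49. Nucleostemin (Gnl3), a GTP-binding protein known from stem cells, had 2.88 in Th1reg, 1.40 in Th1+TGFb, 0.55 in rested, 3.01 in iTreg and 2.44 in Th1. It was among the 3 members highest in iTreg, with Fbl and Ubtf. The other 10, Nop2, Nop16, Gnl2, Ppan, Nip7, Rrs1, Nle1, Noc2l, Wdr74 and Ddx18, were all lowest in rested and highest in Th1reg cells, and spanned from 2.72-fold for Gnl2, a GTP-binding relative of Gnl3, to 5.59-fold for Nop16.

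The comparisons below share arrays with each other, so they do not repeat each other as separate evidence. Rested cells, after 4 more days in IL-2 without listed stimulation, were set against Th1 cells. Medium, stimulation and days in culture differ together between these 2 cultures and cannot be told apart. At least 2-fold lower in rested cells were 35 of 49 members, against 28.1% of the 13227 genes measured, and 1 member, Wdr12, was at least 2-fold higher, against 16.7%. The members' median difference was -1.34 and that of all genes -0.33. Rrp1b was 6.28-fold, Bysl 6.09-fold, Myc 5.95-fold and Gar1 5.93-fold lower. In the other direction were Wdr12, 2.05-fold higher, and Rrp12, Ubtf and Polr1a at log2 differences of 0.58, 0.13 and 0.09. By role, the 2-fold lower members were Myc, 3 of 4 scaffold genes, 2 of 6 RNA polymerase I genes, 3 of 4 box C/D, 3 of 4 box H/ACA, 9 of 14 of 40S and 14 of 16 of 60S maturation. All 10 markers of dividing cells were at least 2-fold lower in rested cells as well, with a median of -3.35. At least 2-fold higher in rested cells were 4 of 4 measured B cell markers, with a median of 2.08, and 3 of 5 measured myeloid markers, with a median of 1.39. The part of these lists in the result was not tested. The counts depend on how the arrays are scaled. On the 75th percentile of detected probes alone they were 17 lower and 2 higher (14.5% and 27.6% of genes), and on 7 spike-in probes 46 lower and 0 higher (64.5% and 4.69%).

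**Figure D3:**
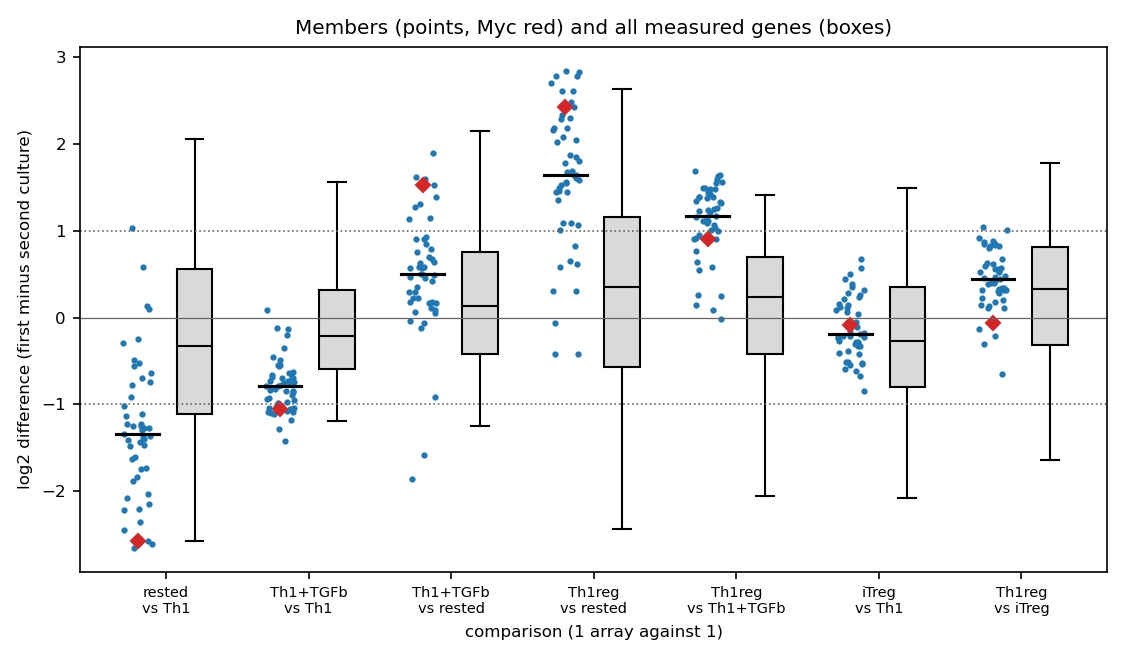
Log2 difference (first minus second culture, 1 array each) of 49 members (points, Myc as a red diamond, line at their median) beside all genes measured (box from the lower to the upper quartile with the median, whiskers from percentile 5 to 95) in 7 comparisons; dotted lines mark 2-fold. The members' median was 1.01 below that of all genes in rested against Th1 and 1.29 above it in Th1reg against rested, and 0.08 from it in iTreg against Th1.

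Th1reg cells, which were rested cells kept 4 more days in iTreg medium, were set against rested cells. Medium, stimulation and days in culture differ together in this pair and cannot be told apart. At least 2-fold higher in Th1reg were 40 of 49 members, against 29.4% of 13329 genes, and 0 were at least 2-fold lower, against 18.5%. The median was 1.64 for the members and 0.35 for all genes. Rrp1b was 7.17-fold, Gar1 7.10-fold, Mrto4 6.87-fold and Bysl 6.86-fold higher. Wdr12 and Rrp12, both at -0.42, and Ubtf, at -0.06, were the members below 0. The 9 members short of 2-fold also held Polr1a and Fbl, both at 0.31, Imp3 at 0.58, Ddx10 at 0.61, Nob1 at 0.65 and Npm1 at 0.82. All 10 markers of dividing cells were at least 2-fold higher, with a median of 3.77, and the summed signals of the B cell and myeloid markers were lower; the part of either was not tested. On the detected probes alone 28 members were higher and 2 lower (15.9% and 27.8% of genes), and on the spike-ins 47 and 0 (71.3% and 5.33%).

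Th1+TGFb cells, with 4 further days in iTreg medium and no rest, were set against Th1 cells; medium and days in culture differ together here and cannot be told apart. None of the 49 members was at least 2-fold higher in Th1+TGFb, against 11.1% of 13055 genes, and 13 were at least 2-fold lower, against 8.13%. The median was -0.79 for the members and -0.22 for all genes, and 48 of 49 members were below 0, the exception being Ubtf at 0.09. Gar1 was 2.69-fold, Rrp12 2.43-fold, Nolc1 2.26-fold and Dkc1 2.16-fold lower. Myc was at -1.05, and the medians of the other roles ran from -0.66 for RNA polymerase I, with 0 of 6 genes 2-fold lower, to -0.90 for box H/ACA proteins, with 2 of 4. All 10 markers of dividing cells were at least 2-fold lower, with a median of -1.34, and their part was not tested. On the detected probes alone 2 members were lower (4.12% of genes), and on the spike-ins 36 (19.9%), with 0 higher in both.

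Th1+TGFb against rested cells compares the 2 cultures that left Th1 medium at the same time. TGF-b and the antibodies to CD3 and CD28 differ together here and cannot be told apart. Only 10 of 49 members were at least 2-fold higher in Th1+TGFb, against 18.1% of 13125 genes, so the share was near the background, and 2 were at least 2-fold lower, against 8.30%. The median was 0.50 for the members and 0.14 for all genes. Rrp1b was 3.72-fold, Bysl 3.08-fold, Ddx21 3.02-fold and Nhp2 2.91-fold higher. For Ddx21 the other probe on the array was at -0.23, and for Nolc1, 2.42-fold higher, it was at -0.44. Lower were Rrp12, 3.63-fold, and Wdr12, 2.99-fold, then Polr1a at -0.92 and Polr1e at -0.12. In the same pair of arrays Myc was 2.87-fold higher, and 9 of 9 measured markers of dividing cells were at least 2-fold higher, with a median of 2.12. The part of these markers was not tested. None of the 6 RNA polymerase I genes reached 2-fold either way, and their median was 0.01. On the detected probes alone 6 members were higher and 3 lower (12.4% and 15.5% of genes), and on the spike-ins 34 and 1 (45.7% and 2.20%).

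Th1reg against Th1+TGFb cells compares iTreg medium reached after rest with the same medium reached straight from Th1 medium. Rest and days in culture, 12 against 8, differ together here and cannot be told apart. At least 2-fold higher in Th1reg were 35 of 49 members, against 13.5% of 13212 genes, and 0 were at least 2-fold lower, against 14.1%. The median was 1.18 for the members and 0.24 for all genes. Gar1 was 3.22-fold, Noc4l 3.11-fold, Wdr75 3.09-fold and Ppan, a factor of 60S assembly, 3.03-fold higher. Role medians ran from 1.09 for 40S maturation to 1.31 for box C/D proteins, with Myc itself at 0.90. On the probes used, Ubtf at -0.02, Ddx21 at 0.09, Fbl at 0.14, Npm1 at 0.25 and Ddx10 at 0.26 were the members within the technical bound. The other probe of Ddx21 was at 1.16 and that of Ubtf at 1.72, and those of Npm1 ran from 0.21 to 0.36. Rrp12 and Wdr12, which had been off the pattern when set against rested cells, were 2.71-fold and 2.23-fold higher here. All 10 markers of dividing cells were at least 2-fold higher, with a median of 1.64, and their part was not tested. On the detected probes alone 19 members were higher (7.23% of genes), and on the spike-ins 44 (41.3%), with 0 lower in both.

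iTreg and Th1 cells, both 4 days from naive cells, differed least. On the probes used, 0 of 49 members were at least 2-fold higher in iTreg, against 10.3% of 13153 genes, and 0 at least 2-fold lower, against 18.6%. The count depends on the probe for Nolc1, whose other probe passed 2-fold upward in iTreg while the probe used was below 0. With the mean of a gene's probes 0 members passed 2-fold either way. The median was -0.19 for the members and -0.27 for all genes, and under 2 other scalings it was above 0, at 0.22 on the detected probes and 0.15 on the spike-ins, with 1 member at least 2-fold higher in each. Furthest down were Polr1c at -0.84, Bysl at -0.68, Mrto4 at -0.61 and Gar1 at -0.59. Furthest up were Fbl at 0.68, Gnl3 at 0.57, Wdr12 at 0.50 and Polr1b at 0.45. Of the markers of dividing cells 1 of 10, Cdk1, was at least 2-fold lower. Of the 8 CD4 T cell markers 6 were at least 2-fold lower in iTreg, with a median of -1.36, and the part of either list was not tested.

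Th1reg against iTreg cells compares the same last medium after different starts. The start and the days in culture, 12 against 4, differ together and cannot be told apart. At least 2-fold higher in Th1reg were 2 of 49 members, Mrto4 at 2.06-fold and Rrp9 at 2.01-fold, against 17.5% of 13184 genes, and 0 were at least 2-fold lower, against 11.1%. The median was 0.44 for the members and 0.33 for all genes. Next came Noc2l, a factor of 60S assembly, at 0.92 and Ltv1, a factor of 40S export, at 0.88. Lower in Th1reg were Fbl at -0.65, Ddx21 at -0.31, Ubtf at -0.21 and Gnl3 at -0.13, with Myc at -0.06. At least 2-fold higher were 4 of 10 markers of dividing cells and 4 of 8 CD4 T cell markers, and the part of either was not tested. Scaled on the 75th percentile or the median of detected probes or on the spike-ins, no member was 2-fold higher, and on the first of these 1 was 2-fold lower.

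Genes around the list were looked at in the same comparisons. Of 69 further genes of ribosome biogenesis, 25 of 68 measured were at least 2-fold lower in rested than in Th1 cells (28.1% of all genes) and 0 higher, with a median of -0.75, between that of the members and that of all genes. In Th1reg against rested cells 38 of 68 were higher (29.4% of all genes) and 1 lower, with a median of 1.06, among them Rpf2 at 6.19-fold and Ebna1bp2 at 5.47-fold, both of 60S assembly. In Th1reg against Th1+TGFb cells 34 of 68 were higher (13.5% of all genes) and 0 lower, among them Pelp1, a part of a 60S release complex, at 3.03-fold. In Th1+TGFb against rested cells 5 of 66 were higher, a smaller share than the 18.1% of all genes, and 0 lower, with a median of 0.19.

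The 22 Myc targets of other function, such as transporters, enzymes and chaperones, moved further than the members between the stimulated cultures and rest. At least 2-fold lower in rested than in Th1 cells were 19 of 22 (28.1% of all genes), with a median of -2.19. Tfrc, the transferrin receptor that brings in iron, had a level of 4.58 in Th1reg, 2.66 in Th1+TGFb, -0.30 in rested, 4.08 in iTreg and 3.97 in Th1. Slc7a5, a part of the transporter of large neutral amino acids, had 2.70, 1.79, -1.11, 1.22 and 3.07. In rested cells, set against Th1, Tfrc was 19.3-fold and Slc7a5 18.2-fold lower. In Th1+TGFb against rested cells 17 of 21 were at least 2-fold higher (18.1% of all genes), with a median of 1.45. The members had 10 of 49 and 0.50 there. In Th1reg against Th1+TGFb cells 9 of 22 were higher (13.5% of all genes), with a median of 0.93, where the members had 35 of 49 and 1.18. The difference between the lists was not tested. In iTreg against Th1 cells 4 of 22 were at least 2-fold lower, a share near the 18.6% of all genes, among them Odc1, the first enzyme of polyamine synthesis, at 4.50-fold, and Slc7a5 at 3.60-fold.

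The 14 genes of RNA polymerase III, which makes 5S ribosomal RNA and transfer RNA, moved less than the members. In rested against Th1 cells their median was -0.35, near that of all genes, and the subunit Polr3d was 2.48-fold lower. In Th1reg against rested cells the median was 0.55, with Polr3d 3.34-fold and Polr3g 2.81-fold higher. In Th1reg against Th1+TGFb cells the median was 0.70, with Polr3e 2.76-fold and Polr3k 2.09-fold higher.

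**Figure D4:**
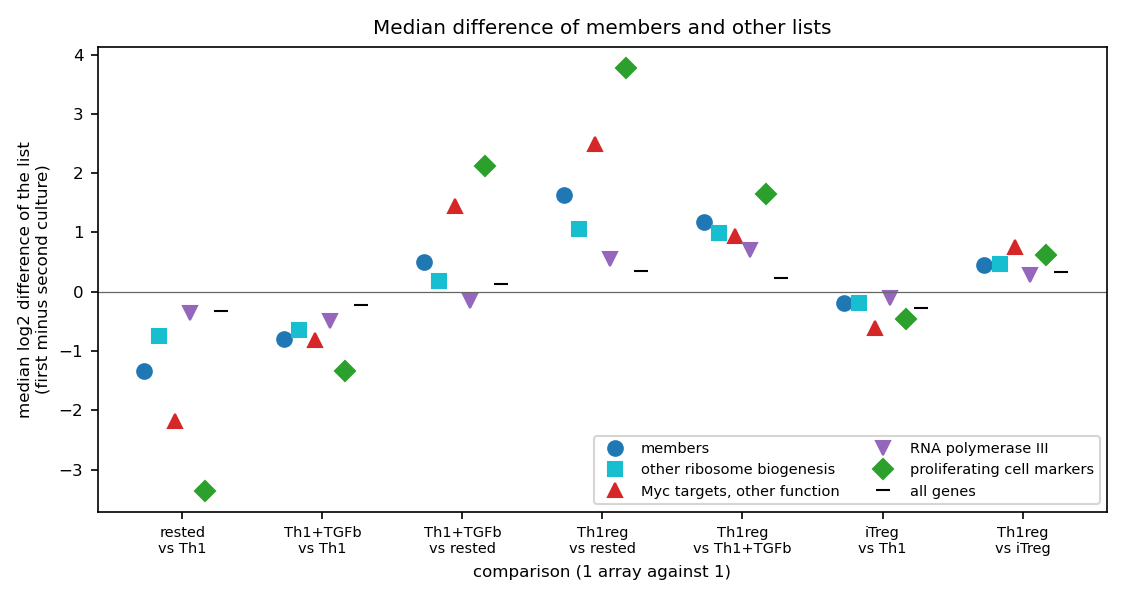
Median log2 difference (first minus second culture, 1 array each) of the 49 members, 4 other gene lists and all genes measured (short lines) in 7 comparisons. In Th1+TGFb against rested the members stood at 0.50, under the Myc targets of other function at 1.45 and the markers of dividing cells at 2.12, while in Th1reg against Th1+TGFb the members at 1.18 stood above those targets at 0.93.

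A gene can be read by more than 1 probe, and for 12 members 15 further probes were on the array, all well above background on all 5. In rested against Th1 cells 14 of the 15 had the sign of the probe used, and of 11 whose used probe was at least 2-fold apart, 7 were so too and in the same direction. In Th1reg against rested cells 13 of 15 had the same sign and 7 of 10 repeated the 2-fold call, and in Th1reg against Th1+TGFb cells 14 of 15 and 6 of 7. In Th1+TGFb against Th1 cells 14 of 15 had the same sign and 1 of 3 repeated the call. Agreement was lower in Th1+TGFb against rested cells, with 11 of 15 of the same sign and 0 of 2 calls repeated, those of Nolc1 and Ddx21. In iTreg against Th1 cells 9 of 15 and in Th1reg against iTreg cells 12 of 15 had the same sign, with no 2-fold call among the probes used. The 4 other probes of Npm1 gave -1.08 to -1.76 in rested against Th1, where the probe used gave -1.02. Disagreement was large for Nip7, a factor of 60S assembly, whose other probe was at 1.41 in rested against Th1 cells where the probe used was at -1.43. It was large in the same comparison for Nolc1, at -0.15 where the probe used was at -2.45, and for Ddx21, at -0.07 against -2.08. Ncl was at -0.18 against -0.91, and Wdr43 at -0.76 against -1.61. For Ncl the sign turned in other comparisons. Its other probe was at -1.10 in Th1+TGFb against rested cells, where the probe used was at 0.18. In Th1reg against iTreg cells it was at -0.80, where the probe used was at 0.47. The other probe of Ubtf was at 1.72 in Th1reg against Th1+TGFb cells, where the probe used was at -0.02, so the flat level of Ubtf holds for 1 of its 2 probes. Which transcripts each probe reads was not analysed here, and values for Nip7, Nolc1, Ncl, Ddx21 and Ubtf rest on the probe chosen.

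**Figure D5:**
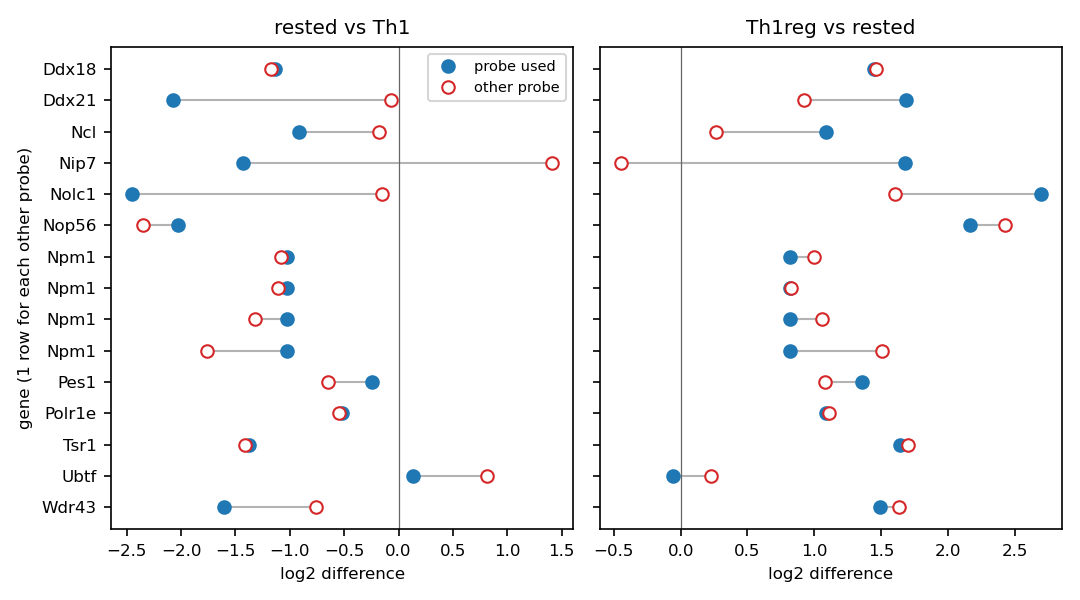
Log2 difference (x axis) of the probe used (filled) and of each other probe (open) of 12 members, 1 row for each other probe, in rested against Th1 (left) and Th1reg against rested (right), 1 array each. Pairs lie close together for Ddx18, Tsr1 and Polr1e and far apart for Nip7, at 1.41 and -1.43 on the left, Nolc1 and Ddx21.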

How the data were processed

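RNA of 5 cultures was measured, with 1 array each, all on 1 slide. The authors deposited the scanner output of Agilent Feature Extraction 10.7.1.1, whose processed signal is a linear intensity with background subtracted, per the file headers. The series' deposited value table is the same intensity over 1 constant per array, within 0.01 log2 for at least 99.7% of probes, and its column medians are 0.0693 for Th1reg, 0.103 for Th1+TGFb, 0.123 for rested, 0.0925 for iTreg and 0.0762 for Th1. The 75th percentile of each column is 1.00, and no source used here says how the constants were chosen.

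Control spots and 109 to 142 outlier spots per array were left out, spots of a probe were averaged over 55681 probes, and log2 of each array's 75th percentile was subtracted. Matching RefSeq accessions through a GRCm38.p6 gene table named 28331 probes. A probe not well above background was raised to the array's lowest signal well above background where it lay under it, and a gene dim on both arrays of a comparison had no value. The software's own error of the measured members' signals was 10.0% to 13.8%. Depth of an array is not a count, and the number of arrays limits the precision. The calculation of differences was tested on simulated data. Python 3.11.15 with numpy 2.4.6 and pandas 2.3.3 was used, with R 4.3.3 and limma 3.58.1 for normexp. The members, lists and comparisons were chosen with earlier results of these data known. Described in full were Myc and, per comparison, the 4 members furthest in each direction; other members were named by role. Alternatives were 3 other scalings, normexp with an offset of 50 on median signals, the mean of a gene's probes, the deposited table, and no floor or filter. Some genes of the lists are not reported here by name.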

Additional observations from a re-analysis of the deposited data

Results flagged for a closer look

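In 12 members, cells after iTreg medium stood on opposite sides of the cells they came from, according to whether those were rested or Th1 cells: the log2 difference was 1 or more for Th1reg against rested cells and -1 or less for Th1+TGFb against Th1 cells. The difference between the 2 contrasts was not tested, since each has 1 array per culture, and 630 of the 12585 genes measured in both (5.01%) did the same. The log2 differences, with Th1reg against rested first and Th1+TGFb against Th1 second, were 2.43 and -1.05 for Myc, 2.70 and -1.17 for Nolc1, 2.16 and -1.10 for Nop56, 2.61 and -1.08 for Nop58, and 1.78 and -1.11 for Dkc1. They were 2.83 and -1.43 for Gar1, 1.49 and -1.03 for Wdr43, 1.80 and -1.09 for Noc4l, and 1.87 and -1.08 for Nop2. Gnl3 had 2.33 and -1.04, Ppan 2.18 and -1.05, and Nle1 1.55 and -1.04. Most second values lie just past 2-fold. Scaled on detected probes, by their 75th percentile or their median, 1 of the 12 still passed 2-fold both ways, and on the spike-ins all 12 did. With normexp 9 of the 12 passed, and with the mean of a gene's probes 10. On the spike-ins 35 members in all met the rule. That scaling moved all genes as well: 71.3% of them passed 2-fold upward in the first contrast and 19.9% passed it downward in the second. How many of all genes met both parts on the spike-ins was not counted, so the 35 have no background to be set against. In Th1+TGFb against Th1 the other probes of Nolc1 and Wdr43 were at -0.59 and -0.68, and that of Nop56 at -1.23. All 12 kept opposite signs under the 7 alternatives.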

How the results depend on the processing

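No paired analysis was possible because each culture had 1 array. The choice of scaling moved most values. On the 75th percentile of the 21014 detected probes, the members' median was -0.77 with 17 lower for rested against Th1, 0.19 with 6 higher for Th1+TGFb against rested, 1.06 for Th1reg against rested, 0.22 for iTreg against Th1 and 0.027 with 0 higher for Th1reg against iTreg. There, 2 were lower in Th1+TGFb against Th1 and 19 higher in Th1reg against Th1+TGFb. On the median of detected probes the values were -1.04 for rested against Th1, 2 lower for Th1+TGFb against Th1, 1.30 for Th1reg against rested, 23 higher for Th1reg against Th1+TGFb and 0 higher for Th1reg against iTreg. On the spike-ins they were -2.44 for rested against Th1, -1.11 with 36 lower for Th1+TGFb against Th1, 1.28 with 34 higher for Th1+TGFb against rested, 3.03 for Th1reg against rested, 1.79 for Th1reg against Th1+TGFb, 0.15 for iTreg against Th1 and 0 higher for Th1reg against iTreg. With no floor or filter 1 member was lower in iTreg against Th1. By the members' median level, 9 of the 10 pairs of cultures kept the main order on the 75th percentile of detected probes and 9 of 10 on the spike-ins, with iTreg above Th1 in both. Wdr12 in rested against Th1 turned to -0.059 on the spike-ins. A scaling shifts all genes together: against the main one, all genes moved by 0.58 on the detected probes and by -1.09 on the spike-ins in rested against Th1, and the members' distance from the median of all genes there was -0.94 and -1.01, against -1.01 in the main scaling. Among genes at least 2-fold apart in rested against Th1, 37.2% were higher in the main scaling, 65.5% on the 75th percentile and 52.6% on the median of detected probes, 6.77% on the spike-ins, 24.3% with normexp and 47.3% with no floor. Normexp, the mean of probes and the deposited table left the other medians and counts close to their main values. Only 1 array stands behind each culture, so no value has an error between cultures.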

Other observations

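Of the further ribosome biogenesis list, 3 of 68 measured were 2-fold or more lower in iTreg than in Th1, a smaller share than the 18.6% of all genes, and 1 higher, against 10.3%. Riok1, a kinase of late 40S maturation, had a level of 1.34 in Th1reg, 1.05 in Th1+TGFb, 0.59 in rested, 0.68 in iTreg and 2.48 in Th1, so that iTreg, set against Th1, was 3.49-fold lower. Utp11, of the small-subunit processome, had 5.34, 4.55, 3.55, 3.84 and 5.18 in that order, and iTreg was 2.53-fold lower when set against Th1. Eif6, which keeps the subunits apart, was 2.17-fold lower in the same pair, and Dhx33, a nucleolar helicase, was at least 2-fold higher in iTreg. For Riok1 Th1 stood above all other cultures, and for Utp11 Th1reg and Th1 stood above the rest.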
